A study of Mus musculus with 30 samples.

Results

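The genes described here are the chains of 2 protein families that meet at the surface of a muscle cell: the integrins, which are receptors for the matrix, and the laminins, which are among their ligands. Every gene was taken whose platform symbol was Itga with a number or v, Itgb with a number, or Lama, Lamb or Lamc with a number, which gave 29 of the 18193 genes on the arrays. They were 11 integrin alpha, 8 integrin beta, 5 laminin alpha, 3 laminin beta and 2 laminin gamma chain genes, each read by its brightest probe set. The genes were picked by symbol, under a rule set with earlier results of these data known. The mean signal over all 30 arrays chose the probe set.

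The cells were mouse embryonic fibroblasts from animals that lacked MyoD and Myf5 (MyoD-/-/Myf5-/-), a background that all groups shared, control cells included. They carried a retrovirus with 1 of 3 inserts: mouse MyoD joined to the hormone-responsive part of the estrogen receptor (ER-MyoD wt), that protein with point mutations of lysines 99, 102 and 104, which can then not be acetylated (ER-MyoD RRR), or nothing (empty retrovirus, the control). All were kept in a medium for muscle differentiation with beta-estradiol, and RNA was taken from ER-MyoD wt cells at 0, 6, 12 and 24 h and from the other two at 6, 12 and 24 h, with 3 arrays for each of the 10 groups. The MyoD of these cells came from a retrovirus and not from its own gene, the labels leave it unsaid whether replicates were separate cultures, so that p-values cover only the spread of these samples, which may be technical. None of the 30 arrays was of ER-MyoD RRR or empty retrovirus cells at 0 h, and a change since 0 h in ER-MyoD wt combines medium, hormone and MyoD.

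An integrin is a pair of 1 alpha and 1 beta chain, and the alpha chain largely sets which ligand it binds. Laminins are cross-shaped trimers of 1 alpha, 1 beta and 1 gamma chain that polymerise into the basement membrane around each muscle fibre. In muscle, Itga7 paired with Itgb1 is a main receptor for laminin that contains the Lama2 chain, beside dystroglycan, and loss of Lama2 causes a muscular dystrophy. MyoD is a transcription factor that commits cells to muscle and binds the short DNA motif called the E-box, CANNTG, and prefers those with GC or GG in the middle.

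Promoters of 3 members with different courses are shown to set their E-boxes beside their signals: Lama5, which was higher in ER-MyoD wt than in empty retrovirus cells at all 3 times, Itgb5, which was higher early and lower late, and Lama2, which rose most from 0 to 24 h. Each is the 250 bases before the RefSeq start site in GRCm38.p6, read 5′ to 3′ on the gene's own strand, and capitals mark the E-box forms CAGCTG (the same on both strands) and CAGGTG, which on the other strand reads as CACCTG.
Lama5 (chr2:180225860-180226109, minus strand): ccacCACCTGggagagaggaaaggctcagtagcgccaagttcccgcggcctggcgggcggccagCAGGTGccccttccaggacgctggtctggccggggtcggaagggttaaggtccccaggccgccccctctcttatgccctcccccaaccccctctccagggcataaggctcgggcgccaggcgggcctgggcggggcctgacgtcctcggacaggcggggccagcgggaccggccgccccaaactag
Itgb5 (chr16:33829415-33829664, plus strand): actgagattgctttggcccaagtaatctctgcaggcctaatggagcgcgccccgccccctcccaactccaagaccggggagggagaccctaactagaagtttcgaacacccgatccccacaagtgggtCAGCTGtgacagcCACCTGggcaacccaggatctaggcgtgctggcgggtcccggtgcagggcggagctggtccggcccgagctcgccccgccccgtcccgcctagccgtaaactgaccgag
Lama2 (chr10:27616943-27617192, minus strand): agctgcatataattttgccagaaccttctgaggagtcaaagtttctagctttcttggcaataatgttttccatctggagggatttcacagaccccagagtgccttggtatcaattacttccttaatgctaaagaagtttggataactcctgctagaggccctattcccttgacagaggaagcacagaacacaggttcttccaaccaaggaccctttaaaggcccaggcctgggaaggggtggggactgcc
In the Lama5 sequence the motif began 246 and 186 bases before the start, and in the Itgb5 sequence 122 and 109 bases before it. The Lama2 sequence held neither form, but it held 1 CANNTG of another form, CATCTG, which is not marked. The Itgb5 sequence held 3 CANNTG, 1 of them unmarked (CAAGTG), and the Lama5 sequence held 2. RefSeq windows from 250 bases before to 50 after the start were at hand for 19 of the 29 members, 22 windows in all. Searched on both strands in all 32851 promoter windows of this length, CAGCTG was present in 16.3%, CAGGTG in 20.2% and any CANNTG, which includes both, in 72.3%. Among the 22 member windows, 6 held CAGCTG, 7 held CAGGTG and 18 held CANNTG. A match is a description of the letters and not of binding. The Itga7, Itga6, Lama4 and Lamc1 windows were not at hand.

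Signals are the deposited intensities, on a linear scale and scaled by array, and they are compared only within a gene, since probe sets of different genes are not on one scale. A log2 difference is the difference between group means of log2(signal + 16) after quantile normalization, with ± its standard error from limma over all 30 arrays (n = 3 arrays a group), and a member passed the test at an adjusted p under 0.05 over all 18193 genes. Of the 29 members, 21 had a mean signal of at least 50 in some group, and the other 8 are called dim. Myod1, the targeted gene that the retrovirus restores, read 451 to 1299 on single arrays of ER-MyoD wt, 298 to 1155 of ER-MyoD RRR and 145 to 256 of empty retrovirus, and Myf5 read 214 to 534, 152 to 412 and 324 to 703. Where these probe sets lie relative to the deletions is not known here, so they do not check the deletions. Replicate arrays correlated at r = 0.946 to 0.973, and 27 of 30 arrays were nearest to an array of their own group. A 6 h array of ER-MyoD wt was closest to replicate 2 of ER-MyoD RRR at 6 h, and control arrays of 6 h to replicates 1 and 3 of the control at 12 h. By the mean correlation with its own group, the lowest were ER-MyoD RRR 6 h replicate 2 (0.949), empty retrovirus 12 h replicate 1 (0.950) and ER-MyoD wt 24 h replicate 3 (0.951), called below the 3 arrays that stood apart. The first of them also had the highest 3′ to 5′ ratios of Gapdh (2.44) and Actb (3.61), values that rise in degraded RNA. In bulk samples, fewer cells of a type and less RNA per cell cannot be told apart.

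Comparing ER-MyoD wt with empty retrovirus at the same hour sets cells with the fusion beside cells without it in the same medium. No control array was from 0 h, so a difference already present then cannot be told apart from a later effect of the fusion. At 0 h the mean signals of Itgb5, Lama4 and Itga8 in ER-MyoD wt were 3606, 151 and 158. In empty retrovirus at 6 h they were 802, 16.3 and 47.9. The laminin receptor chains Itga6 and Itga7 had the highest differences of the integrins at 24 h and were higher at every hour. The laminin chain Lama5 was higher at every hour too. The leukocyte integrin chain Itgb2 and the laminin chain Lamb1 were lower at every hour. Itga8, Itgb5 and Lama4 were higher in ER-MyoD wt at 6 and 12 h and lower at 24 h. Lama2 was higher at 24 h and did not pass at 12 h. It was lower at 6 h, where both group means were low (6.35 against 34.1).

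At 6 h, 11 of the 29 members passed the test, 37.9% of them, with 8 higher and 3 lower in ER-MyoD wt, against 12.7% of all genes (6.51% higher and 6.21% lower). At 12 h, 12 passed (41.4%, 8 higher and 4 lower) against 15.4% of all genes (7.16% higher and 8.26% lower). At 24 h, 12 passed again (41.4%), now 4 higher and 8 lower, against 25.4% of all genes (11.4% higher and 14% lower). The median log2 difference of the 29 members was 0.03, 0.03 and 0.02 at 6, 12 and 24 h, and that of all genes -0.01, -0.02 and 0.03: the members moved in both directions. The split depended on the scaling: at 6 h it was 8 higher and 7 lower without quantile normalization, and at 12 h 8 higher and 2 lower with median centring, which moved the median of all genes by 0.11 and 0.09 at those times. Without the 3 arrays that stood apart, 11, 10 and 12 members passed at 6, 12 and 24 h.

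**Figure D1:**
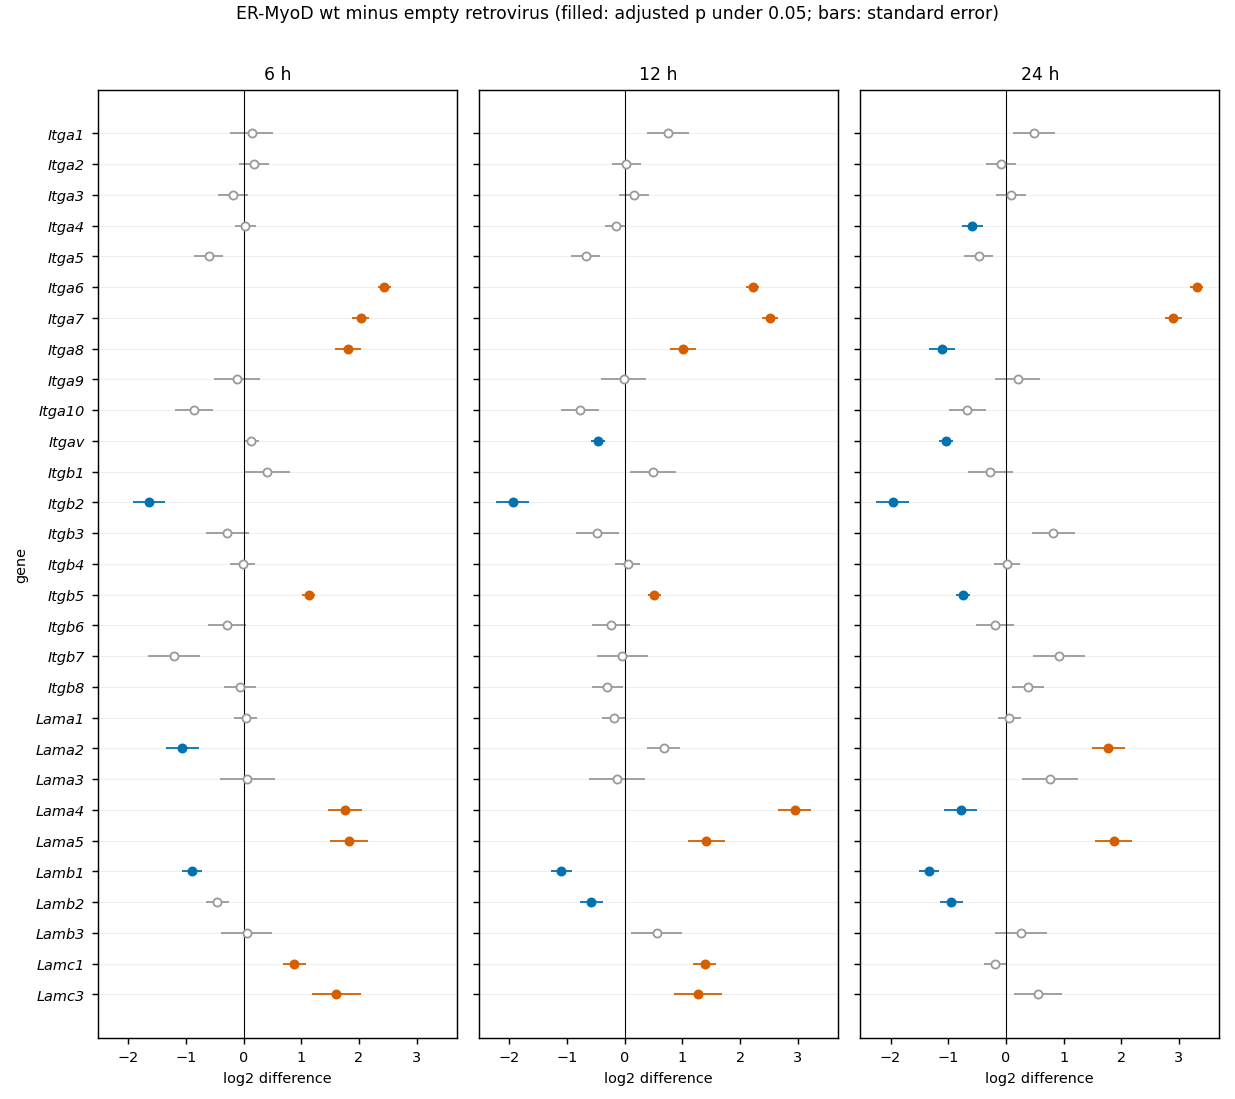
Log2 difference of ER-MyoD wt minus empty retrovirus for each of the 29 members (rows, by chain) at 6, 12 and 24 h (panels); bars are standard errors, and filled points passed the test, orange for higher and blue for lower. Itga6 and Itga7 lie farthest to the right at 24 h (3.31 and 2.90), and Itga8, Itgb5 and Lama4 cross from right to left between 12 and 24 h.

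Itga7 encodes the laminin-binding alpha chain of skeletal muscle. The Itga7 signal was 98.1, 91.1 and 118 in ER-MyoD wt at 0 h, 537, 384 and 416 at 6 h, 599, 772 and 604 at 12 h and 601, 518 and 488 at 24 h. It was 305, 269 and 369, then 529.6, 499.9 and 449, then 639, 594 and 473 in ER-MyoD RRR at 6, 12 and 24 h. Empty retrovirus cells read 98, 97.5 and 109.9, then 125, 91.7 and 108, then 73.4, 53.9 and 61.6. Every array of either fusion from 6 h on lay above every empty retrovirus array and above every 0 h array. ER-MyoD wt minus empty retrovirus was 2.03 ± 0.15, 2.52 ± 0.15 and 2.90 ± 0.15 (adjusted p = 2.28e-11, 1.65e-13 and 4.44e-15), the last a 7.49-fold difference. Against 0 h, ER-MyoD wt was higher by 1.81 ± 0.15 already at 6 h and by 2.11 ± 0.15 at 24 h (adjusted p = 3.26e-10 and 2.04e-12). The widening after 6 h had a part on the control side: Itga7 fell in empty retrovirus cells from 6 to 24 h (-0.58 ± 0.15, adjusted p = 0.00522). In ER-MyoD RRR it rose over the same hours (0.84 ± 0.15, adjusted p = 4.64e-05).

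Itga6 is the other laminin-binding alpha chain with a strong signal here, and it pairs with Itgb1 or, in epithelia, with Itgb4. The Itga6 signal was 491, 541 and 575 at 0 h in ER-MyoD wt and 2152, 2246 and 2238, 1629, 1919 and 1687, and 1421, 1647 and 1404 at 6, 12 and 24 h. ER-MyoD RRR read 1283, 1387 and 1130.0, then 1725, 1435 and 1508, then 1203, 1294 and 1317. The empty retrovirus arrays were at 391, 405 and 361, then 374, 381 and 303, then 152, 148 and 152. In ER-MyoD wt the highest arrays were those of 6 h, where Itga7 had its highest at 12 h, and no fusion array from 6 h on overlapped a control array. The difference from empty retrovirus was 2.44 ± 0.11, 2.22 ± 0.11 and 3.31 ± 0.11 (adjusted p = 2.78e-15, 1.01e-14 and 1.45e-18), which is 9.88-fold at 24 h. From 6 to 24 h Itga6 fell in both, in ER-MyoD wt (-0.50 ± 0.11, adjusted p = 0.00105) and in empty retrovirus (-1.37 ± 0.11, adjusted p = 4.63e-10). A second Itga6 probe set gave 2.49, 2.29 and 3.21 for ER-MyoD wt minus empty retrovirus.

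Itgb1, the beta chain that Itga6, Itga7 and most of the other alpha chains pair with, passed the test in none of the 17 comparisons. Its signal was 1511, 1667 and 1686 at 0 h and 2289, 1672 and 1936, then 1759, 2068 and 946, then 1543, 1057 and 1664 in ER-MyoD wt. ER-MyoD RRR cells gave 1478, 344 and 1428, then 1714, 979.8 and 1503, then 1304, 1503 and 1401. In empty retrovirus they were 1554, 1606 and 908, then 1427, 566 and 1187, then 1638, 1317 and 1739. In deposited signal the 6 h arrays of ER-MyoD wt lay above those of the other two, at 12 and 24 h the groups overlapped, and several groups held 1 low array. On the normalized log2 scale ER-MyoD wt and control overlapped at 6 h too: ER-MyoD wt replicate 2 was 10.68, and empty retrovirus replicates 1 and 2 were 10.73 and 10.75. The 5 low arrays ER-MyoD RRR 6 h replicate 2 (344), empty retrovirus 12 h replicate 2 (566), replicate 3 of ER-MyoD wt at 12 h (946), ER-MyoD RRR 12 h replicate 2 (980) and replicate 2 of ER-MyoD wt at 24 h (1057) had Actb 3′ to 5′ ratios of 3.61, 2.07, 2.07, 1.74 and 1.93, while a sixth, empty retrovirus 6 h replicate 3 (908), had 1.19; the part of RNA quality in them was not tested. The difference of ER-MyoD wt from empty retrovirus had wide 95% intervals, -0.39 to 1.22 at 6 h, -0.32 to 1.29 at 12 h and -1.07 to 0.54 at 24 h, and 1 dimmer Itgb1 probe set passed at 12 h (0.90). The third laminin-binding alpha chain, Itga3, had group means of only 45.1 to 86.6 and passed in no comparison.

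**Figure D2:**
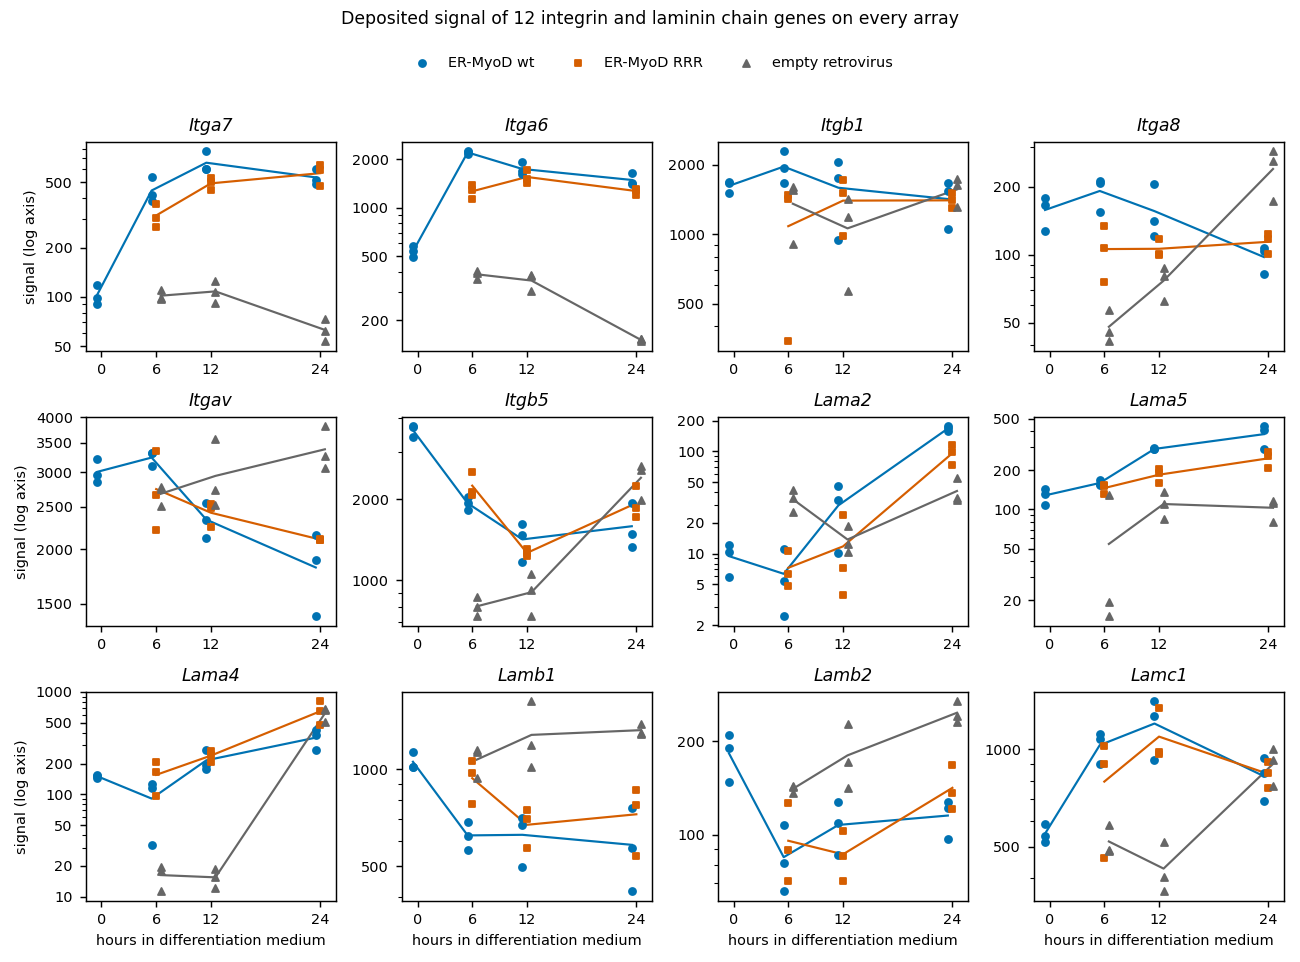
Deposited signal (log axis) of 12 members by hours in differentiation medium; each point is 1 array, and lines join the means of 3 arrays of ER-MyoD wt (blue circles), ER-MyoD RRR (orange squares) and empty retrovirus (grey triangles). Itga7 and Itga6 separate from the control from 6 h on, the curves of Itga8, Itgb5 and Lamc1 meet or cross by 24 h, and Lama4 of empty retrovirus climbs from 11.4 to 19.6 at 6 h to 507 to 685 at 24 h.

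Among the receptors for fibronectin and other RGD ligands, the alpha chains changed in different ways. Itga8, which binds nephronectin, read 208, 155 and 211 in ER-MyoD wt, 134, 107 and 75.9 in ER-MyoD RRR and 41.5, 45.6 and 56.7 in empty retrovirus at 6 h. At 12 h the arrays were 121, 141 and 205, then 99.8, 101 and 117, then 80.7, 87.1 and 62.2, and at 24 h 81.9, 107 and 104, then 124, 117 and 101, then 286, 259 and 173. The order of the groups was turned without overlap: both fusions lay above the control at 6 h and below it at 24 h. The difference of ER-MyoD wt from the control went from 1.80 ± 0.23 (adjusted p = 8.57e-07) through 1.0 ± 0.23 (adjusted p = 0.00176) to -1.11 ± 0.23 (adjusted p = 0.000333). Both sides moved: from 6 to 24 h Itga8 rose in empty retrovirus (1.98 ± 0.23, adjusted p = 1.73e-07) and fell in ER-MyoD wt (-0.94 ± 0.23, adjusted p = 0.00213). At 0 h ER-MyoD wt read 179, 167 and 127, and its fall to 24 h (-0.75 ± 0.23, adjusted p = 0.0107) was lost without 24 h replicate 1 (-0.66, adjusted p = 0.0544) or 0 h replicate 1 (-0.67, adjusted p = 0.0525).

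Itgav, the alpha chain that pairs with most RGD-binding beta chains, had its lowest group mean in ER-MyoD wt at 24 h. It was 2850.2, 3208 and 2949 at 0 h, then 3309, 3309 and 3098, then 2334, 2119.5 and 2554, then 1885, 2156 and 1406 in ER-MyoD wt. ER-MyoD RRR gave 2659.5, 3357 and 2213, then 2244, 2538 and 2486, then 2097, 2103 and 2109.9, and empty retrovirus 2774, 2751 and 2504, then 2522, 3574 and 2725, then 3260.2, 3816 and 3071. Both fusions were below every control array at 24 h and overlapped with it at 12 h. The difference of ER-MyoD wt from the control was -1.03 ± 0.12 at 24 h (adjusted p = 1.17e-07), a call that the mean over the 5 Itgav probe sets did not keep (-0.56, adjusted p = 0.0851). At 12 h it was -0.46 ± 0.12 (adjusted p = 0.00794), which was lost without empty retrovirus 12 h replicate 2 (-0.35, adjusted p = 0.0771) and with median centring (-0.16, adjusted p = 0.733).

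Itga5, the classical fibronectin receptor chain, fell in ER-MyoD wt after 0 h. Its arrays were 534, 565 and 539 at 0 h, then 158, 190.3 and 123, then 104, 176 and 157, then 285, 249 and 173, and every later array was below every 0 h array. The changes from 0 h were -1.62 ± 0.25, -1.77 ± 0.25 and -1.18 ± 0.25 (adjusted p = 2.24e-05, 4.31e-06 and 0.000461). In empty retrovirus the arrays were 191, 318 and 316, then 287, 153 and 328, then 362, 310.2 and 321, and in ER-MyoD RRR 151, 245 and 288, then 206, 183 and 125, then 229, 209.7 and 240.2. Against the control, Itga5 did not pass (-0.61, -0.68 and -0.47, adjusted p = 0.131, 0.0711 and 0.195). Without empty retrovirus 12 h replicate 2 it passed at 12 h (-0.98, adjusted p = 0.00866), as it did with the filter on dim genes (adjusted p = 0.0498). It passed at 6 h without empty retrovirus 6 h replicate 1 (-0.85, adjusted p = 0.0414) or with the deposited scaling (-0.74, adjusted p = 0.0494). At 6 h the arrays of ER-MyoD wt reached 190 and those of the control began at 191.

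Itga4 binds Vcam1 and fibronectin. Its arrays read 86.9, 59.1 and 74 at 0 h, then 98.5, 92.2 and 84.7, then 97.6, 102 and 102, then 153, 119 and 149 in ER-MyoD wt. In ER-MyoD RRR they were 35, 69.3 and 66.4, then 134, 129 and 142, then 193, 203 and 190.3, and in empty retrovirus 103, 108 and 105, then 163, 112 and 104, then 227, 228 and 236. The highest arrays were those of empty retrovirus at 24 h. Itga4 rose in empty retrovirus from 6 to 24 h (1.02 ± 0.18, adjusted p = 0.000124) and in ER-MyoD RRR (1.41 ± 0.18, adjusted p = 5.93e-07). ER-MyoD wt was below the control at 24 h (-0.59 ± 0.18, adjusted p = 0.0157), which was lost without ER-MyoD wt 24 h replicate 2 (-0.54, adjusted p = 0.0574). The 4 other Itga4 probe sets had mean signals of at most 21.1, and the mean over all 5 ended both the 24 h call (-0.27, adjusted p = 0.339) and the rise in empty retrovirus (0.01, adjusted p = 0.993).

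The collagen-binding chains were low and mostly did not pass. Itga2 had group means of 60.3 to 99.9, and it passed in the change of ER-MyoD wt from 0 to 24 h (-0.73 ± 0.26, adjusted p = 0.0296), a call lost in 6 of 16 alternatives (adjusted p from 0.0172 to 0.139), among them those without ER-MyoD wt 24 h replicate 3 (-0.59, adjusted p = 0.132) and without 0 h replicates 2 or 3. Itga10 read 10.9, 25.8 and 40.9 in ER-MyoD RRR at 12 h against 128, 49.6 and 126 in empty retrovirus, with 29.7, 60.8 and 43.1 in ER-MyoD wt. Its difference in ER-MyoD RRR was -1.34 ± 0.33 (adjusted p = 0.00616), which was lost without ER-MyoD RRR 12 h replicate 1 (-1.05, adjusted p = 0.0688). That call was also lost on only the arrays compared (adjusted p = 0.0762). In ER-MyoD wt minus empty retrovirus Itga10 passed at 6 h with the deposited scaling (-1.05, adjusted p = 0.0424). At 12 h it passed there without empty retrovirus 12 h replicate 2 (-1.07, adjusted p = 0.0395). Itga9, a tenascin receptor chain with group means of 18.4 to 55.8, passed in none.

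Of the beta chains, Itgb5 and Itgb2 passed against the control at every hour. Itgb5 pairs with Itgav to bind vitronectin. Itgb5 read 3402, 3695 and 3722 at 0 h, then 1942, 2032 and 1821, then 1472, 1168 and 1617, then 1486, 1944 and 1334 in ER-MyoD wt. ER-MyoD RRR was at 2075, 2531 and 2128, then 1263, 1228 and 1303, then 2229.9, 1852 and 1723, and empty retrovirus at 800.4, 738 and 867, then 739, 1055 and 919, then 1989, 2656 and 2558. ER-MyoD wt was above every control array at 6 and 12 h and below every one at 24 h. The difference was 1.13 ± 0.12, 0.51 ± 0.12 and -0.74 ± 0.12 (adjusted p = 2.66e-08, 0.00175 and 9.05e-06), and the last missed the threshold with median centring (-0.55, adjusted p = 0.0645). As with Itga8, the control rose: 1.65 ± 0.12 from 6 to 24 h (adjusted p = 1.98e-11). All later ER-MyoD wt arrays were below those of 0 h, a change of -0.77 ± 0.12 at 6 h and -0.99 ± 0.12 at 24 h (adjusted p = 1.31e-05 and 6.07e-08). All 4 Itgb5 probe sets had the same signs, from 1.13 to 1.5 at 6 h and from -0.97 to -0.74 at 24 h.

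Itgb2 is the beta chain of leukocyte integrins. Its arrays were 62.4, 78.4 and 55.5 at 0 h, then 15, 23.2 and 22.4, then 8.71, 61.8 and 23.3, then 29.3, 47.1 and 51 in ER-MyoD wt. ER-MyoD RRR read 35.6, 38.4 and 47.2, then 42.3, 44.7 and 36.9, then 80, 86 and 72.7, and empty retrovirus 113, 148 and 81.6, then 167, 156 and 158, then 218, 217 and 228. Both fusions lay below every control array at each hour. ER-MyoD wt minus empty retrovirus was -1.64 ± 0.28, -1.94 ± 0.28 and -1.96 ± 0.28 (adjusted p = 0.000104, 7.12e-06 and 2.96e-06). The alpha chains that pair with Itgb2 stayed low, with group means of 19.2 to 46.7 for Itgal, 10.5 to 54.3 for Itgam and 13.6 to 40.1 for Itgax. Of 9 macrophage and blood markers 8 were measured; their summed signal was 396 to 524, 401 to 779 and 385 to 591 in empty retrovirus and 535 to 671, 649 to 981 and 379 to 689 in ER-MyoD wt at 6, 12 and 24 h. Csf1r, the receptor of macrophage growth factor, was the only one of the 8 that passed, higher in ER-MyoD wt at each hour (1.39, 1.86 and 0.64), where Itgb2 was lower. Of all genes 12.7%, 15.4% and 25.4% passed at 6, 12 and 24 h. The pan-leukocyte marker Ptprc had group means of 7.94 to 27.8 and the macrophage marker Cd68 of 34.2 to 70.1, none at 0. Their part in the Itgb2 difference was not tested.

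Itgb7, which pairs with Itga4 or Itgae, varied widely among replicates and passed only in the change of the ER-MyoD wt minus empty retrovirus difference from 6 to 24 h (2.13 ± 0.64, adjusted p = 0.0213). Its arrays were 8.89, 23.8 and 53.5 in ER-MyoD wt against 99.2, 78.2 and 95.8 in empty retrovirus at 6 h, and 25.4, 77.1 and 154 against 47.6, 46.4 and 15.4 at 24 h. The call was lost without replicate 3 of ER-MyoD wt at 24 h, its replicate 1 at 6 h or empty retrovirus 24 h replicate 3 (1.71, 1.78 and 1.83, adjusted p = 0.0868, 0.0763 and 0.0723). The remaining beta chains were dim, with group means of 5.09 to 33.1 for Itgb3, 5.39 to 13.5 for Itgb4, 19.4 to 36.6 for Itgb6 and 8 to 19.8 for Itgb8. Itgb3, the vitronectin receptor chain, passed once among them, from 0 to 6 h in ER-MyoD wt (-1.13 ± 0.38, adjusted p = 0.0353), and 4 left-out arrays each ended that call (adjusted p from 0.0519 without ER-MyoD wt 0 h replicate 1 to 0.165 without 0 h replicate 2; the others were 6 h replicates 2 and 3). The collagen receptor chain Itga1 was dim as well, at 8.62 to 34.1.

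The laminin alpha chains, which carry the sites that integrins and dystroglycan bind, took differing courses. Lama2, the chain of mature muscle basement membrane, was at 12.1, 5.91 and 10.4 in ER-MyoD wt at 0 h, then 2.45, 11.2 and 5.38, then 33.5, 10.1 and 45.4, then 158, 168 and 176. ER-MyoD RRR read 6.3, 10.7 and 4.83, then 3.93, 24.1 and 7.25, then 99, 116 and 73.1, and empty retrovirus 34.9, 25.8 and 41.5, then 18.5, 10.3 and 12.5, then 55.1, 34.7 and 33.1. At 24 h both fusions lay above every control array, and at 6 h below. The rise from 0 to 24 h in ER-MyoD wt was 2.77 ± 0.28 (adjusted p = 6.11e-09), the largest of the members from 0 h, and a 0 h signal near 10 makes that scale understate it. Against empty retrovirus it was 1.78 ± 0.28 at 24 h (adjusted p = 1.49e-05), 0.67 ± 0.28 at 12 h (adjusted p = 0.125) and -1.07 ± 0.28 at 6 h (adjusted p = 0.0101). The 6 h call was lost without ER-MyoD wt 6 h replicate 1 (-0.94, adjusted p = 0.0588) or empty retrovirus 6 h replicate 3 (-0.97, adjusted p = 0.0522), and the 12 h value passed without ER-MyoD wt 12 h replicate 2 (1.04, adjusted p = 0.0116).

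Lama4, a chain of vessels and of developing muscle, read 145, 152 and 155 at 0 h, then 116, 125 and 32.1, then 274, 178 and 193, then 424, 382 and 268 in ER-MyoD wt. ER-MyoD RRR gave 164, 95.3 and 205, then 268, 242 and 207, then 809, 657 and 479. In empty retrovirus it was low at 6 and 12 h and high at 24 h: 17.8, 19.6 and 11.4, then 12.2, 15.6 and 18.5, then 685, 660.3 and 507. The rise of the control from 6 to 24 h was 4.37 ± 0.29 (adjusted p = 7.68e-12), and both fusions rose too, by 1.83 ± 0.29 in ER-MyoD wt and 1.96 ± 0.29 in ER-MyoD RRR (adjusted p = 1.54e-05 and 5.81e-06). ER-MyoD wt exceeded empty retrovirus by 1.76 ± 0.29 at 6 h and 2.94 ± 0.29 at 12 h (adjusted p = 6.15e-05 and 1.06e-08). At 24 h it was lower, -0.79 ± 0.29, at an adjusted p of 0.0471 that 10 of 16 alternatives (adjusted p from 0.0138 to 0.483) did not keep; the left-out arrays among them were ER-MyoD wt 24 h replicates 2 and 3 (-0.84 and -0.61) and empty retrovirus 24 h replicates 1 and 2 (-0.68 and -0.73). A second Lama4 probe set, with a mean signal of 29.7, gave 0.22, 0.75 and -0.10 at 6, 12 and 24 h and did not pass, and the mean of both lost the 6 h call (0.99, adjusted p = 0.104).

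Lama5 is a chain of most developing basement membranes. The Lama5 signal was 107, 132 and 145 at 0 h, then 169, 154 and 156, then 289, 296 and 291, then 411, 291 and 435 in ER-MyoD wt. In ER-MyoD RRR it was 153, 153 and 132, then 206, 159 and 189.8, then 258, 207 and 277, and in empty retrovirus 19.4, 128 and 15.1, then 110.1, 84.7 and 135, then 113, 80.4 and 116. ER-MyoD wt was above the control on every array at each hour, and the control of 6 h was uneven, with replicate 2 at 128 and the other two below 20. The difference was 1.83 ± 0.32, 1.41 ± 0.32 and 1.87 ± 0.32 (adjusted p = 0.000156, 0.00218 and 4.58e-05), and from 0 to 24 h Lama5 rose by 1.35 ± 0.32 in ER-MyoD wt (adjusted p = 0.0016). A second probe set gave 0.89, 1.66 and 1.74, of which the last 2 passed, and another, with a mean signal of 8.6, did not pass at any hour. The remaining alpha chains were dim: Lama1, of early embryos, had group means of 2.56 to 8.65, and Lama3, of epithelia, of 13 to 44.1.

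Both laminin beta chains with a signal were lower with the fusion. Lamb1, the general beta chain, read 1131, 1015 and 1014 at 0 h, then 686, 561 and 620.3, then 707, 496 and 673, then 569, 759 and 418 in ER-MyoD wt. ER-MyoD RRR read 971, 1059 and 781, then 699, 749 and 567, then 863, 771 and 538, and empty retrovirus 1126, 1144 and 938, then 1018, 1622 and 1190.0, then 1298, 1375 and 1288. No ER-MyoD wt array from 6 h on reached a control array or a 0 h array. The difference from the control was -0.90 ± 0.17, -1.10 ± 0.17 and -1.33 ± 0.17 (adjusted p = 0.000454, 2.74e-05 and 7.01e-07), and the first missed the threshold with median centring (-0.57, adjusted p = 0.17). In all 4 Lamb1 probe sets the difference was below 0 at each hour.

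Lamb2, the beta chain of the neuromuscular junction, was at 191, 210.0 and 148 at 0 h, then 65.9, 80.9 and 107, then 109, 86.3 and 127, then 127, 97 and 122 in ER-MyoD wt. ER-MyoD RRR gave 89.6, 127 and 70.9, then 103, 85.3 and 71.3, then 121, 168 and 136, and empty retrovirus 143, 142 and 136, then 228, 141 and 171, then 242, 231 and 269. ER-MyoD wt was below every control array at all 3 hours. At 24 h the difference was -0.95 ± 0.20 (adjusted p = 0.000494), and at 6 h it did not pass (-0.46 ± 0.20, adjusted p = 0.157). At 12 h it was -0.58 ± 0.20 with an adjusted p of 0.0475, which 9 of 16 alternatives (adjusted p from 0.0251 to 0.24) did not keep; the left-out arrays that ended it were ER-MyoD wt 12 h replicates 1 and 2 (-0.59 and -0.44) and empty retrovirus 12 h replicates 1 and 3 (-0.44 and -0.61). The epithelial chain Lamb3 was dim, with group means of 10.7 to 42.1.

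The gamma chains were higher with the fusion at 6 and 12 h and did not pass at 24 h. Lamc1, the gamma chain of most laminins, read 519, 542 and 587 at 0 h, then 1109, 1076 and 901, then 1268, 1402 and 925, then 941, 843 and 693 in ER-MyoD wt. ER-MyoD RRR gave 901, 463 and 1019.6, then 1336, 965 and 976, then 758, 843 and 914, and empty retrovirus 490.1, 486 and 583, then 403, 366 and 518, then 927, 772 and 1002. ER-MyoD wt was above every control array at 6 and 12 h and overlapped with the control at 24 h. The difference was 0.88 ± 0.20, 1.38 ± 0.20 and -0.19 ± 0.20 (adjusted p = 0.00223, 5.55e-06 and 0.569). Again the control rose, by 0.83 ± 0.20 from 6 to 24 h (adjusted p = 0.00302). With the mean over its 2 probe sets the 6 h call was lost (0.62, adjusted p = 0.344), and so was the rise of the control (0.49, adjusted p = 0.479). Lamc3, with group means of 16.1 to 70.9, was higher by 1.61 ± 0.42 at 6 h and 1.27 ± 0.42 at 12 h (adjusted p = 0.0088 and 0.0388). The 6 h call was lost without ER-MyoD wt 6 h replicate 2 (1.36) or empty retrovirus 6 h replicate 1 (1.40), and the 12 h call in 7 of 16 alternatives (adjusted p from 0.000538 to 0.207), among them those without ER-MyoD wt 12 h replicates 1 and 2 (1.08 and 1.17) and empty retrovirus 12 h replicates 1 and 2 (0.93 and 1.26).

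Whether the same members differed with the mutant fusion was asked in ER-MyoD RRR minus empty retrovirus. These comparisons share their control arrays with those of ER-MyoD wt, so their values are set side by side only. At 6 h, 10 of 29 members passed (7 higher and 3 lower) against 13.8% of all genes (7.18% higher and 6.63% lower). At 12 h 11 passed (6 and 5) against 10.1% of all genes (5.11% higher and 4.97% lower), and at 24 h 10 (4 and 6) against 19% of all genes (8.56% higher and 10.5% lower). With median centring the 12 h split was 6 higher and 3 lower. The medians of the members were 0.13, 0.05 and 0.10, and of all genes 0.04, -0.01 and 0.03. Fits on the 6 arrays compared alone gave 6 members at 6 h and 6 at 12 h, and without ER-MyoD RRR 12 h replicate 1 the 12 h count was 7. Itga6 and Itga7 were higher and Itgb2 lower at all 3 hours. Itga6 differed by 1.60, 2.07 and 3.16, Itga7 by 1.59, 2.11 and 3.01, and Itgb2 by -1.0, -1.48 and -1.37. The 6 h value of Itgb2 (adjusted p = 0.015) was lost without ER-MyoD RRR 6 h replicate 1 (-0.94, adjusted p = 0.0554) or empty retrovirus 6 h replicate 2 (-0.81, adjusted p = 0.104) and on only the arrays compared (-1.0, adjusted p = 0.0641).

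Itga8 went from 1.10 at 6 h to -0.99 at 24 h in ER-MyoD RRR (adjusted p = 0.000903 and 0.00179), and Itgb5 from 1.30 to -0.36 (adjusted p = 2.74e-09 and 0.0245), the last of which 8 of 16 alternatives (adjusted p from 0.00449 to 0.253) did not keep, left-out ER-MyoD RRR 24 h replicates 2 and 3 (-0.36 and -0.28) and empty retrovirus 24 h replicates 2 and 3 (-0.33 and -0.34) among them. Lama4 exceeded the control by 2.50 and 3.08 at 6 and 12 h (adjusted p = 3.92e-07 and 8.8e-09) and did not pass at 24 h (0.08, 95% interval -0.52 to 0.68). Lama2 was -1.0, -0.04 and 0.92 (adjusted p = 0.0163, 0.966 and 0.0211); its 24 h call was lost in 5 of 16 alternatives (adjusted p from 0.00226 to 0.149), those without ER-MyoD RRR 24 h replicates 1 or 2 (0.87 and 0.79) and empty retrovirus 24 h replicates 2 or 3 (0.84 and 0.88) included, and its 6 h call without empty retrovirus 6 h replicates 1 or 3 (-0.99 and -0.90) or ER-MyoD RRR 6 h replicate 3 (-0.93). Lama5 was 1.76, 0.79 and 1.23 and passed at 6 and 24 h (adjusted p = 0.000284 and 0.00659). Its 6 h call was lost on only the arrays compared (1.76, adjusted p = 0.0732). Lamb1, at -0.37, -1.0 and -0.94, and Lamb2, at -0.31, -0.84 and -0.76, passed at 12 and 24 h. The 12 h call of Lamb1 was lost with median centring (-0.71, adjusted p = 0.0841), and that of Lamb2 on only the arrays compared (-0.84, adjusted p = 0.0618). Lamc1 passed at 12 h (1.27, adjusted p = 3.83e-05), though not with the mean over its probe sets (1.06, adjusted p = 0.0694), and, with ER-MyoD RRR 6 h replicate 2 left out, at 6 h too (0.77, adjusted p = 0.00307). Itga4 was lower at 6 h (-0.57, adjusted p = 0.0325) and lost that call without ER-MyoD RRR 6 h replicate 1 (-0.32, adjusted p = 0.272) or without any one of the control arrays of 6 h (adjusted p from 0.0682 to 0.0961). Itgav at 12 h (-0.38), Itgb5 at 12 h (0.38) and Lamc3 at 6 and 12 h (1.25 and 1.36) passed at adjusted p of 0.0435, 0.031, 0.0457 and 0.036, and at least 8 of 16 alternatives ended each of these calls. Those of 12 h were lost without any 1 of the ER-MyoD RRR arrays of that hour, without empty retrovirus replicate 1 and, by gene, without its replicate 2 (Itgav, Lamc3) or 3 (Itgb5), with adjusted p from 0.0531 for Itgb5 to 0.236 for Itgav; the Lamc3 call of 6 h was lost without replicates 1 or 3 of either group (adjusted p from 0.108 to 0.194).

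The direct comparison, ER-MyoD RRR minus ER-MyoD wt, sets the fusion without the acetylatable lysines beside the one with them at the same hour. Only Itga6 passed, at 6 h, so 1, 0 and 0 of the 29 members passed at 6, 12 and 24 h, against 3.66% of all genes (1.63% higher and 2.03% lower), then 1.75% (0.874% and 0.879%), then 5.38% (3.34% and 2.04%). At an unadjusted p under 0.05 limma gave 11, 2 and 7 members, against 16.5%, 10.9% and 16.9% of all genes. The members' medians were 0.07, -0.09 and 0.11, and those of all genes 0.05, 0.01 and 0.00. Itga6 read 1283, 1387 and 1130 in ER-MyoD RRR and 2152, 2246 and 2238 in ER-MyoD wt at 6 h, with no overlap, a difference of -0.84 ± 0.11 (95% interval -1.07 to -0.61, adjusted p = 4.32e-05). Its second probe set gave -0.83. By 12 and 24 h the Itga6 difference was -0.14 ± 0.11 and -0.14 ± 0.11 (95% intervals -0.38 to 0.09 and -0.38 to 0.09), and the test of the change from 6 to 24 h passed (0.69 ± 0.16, adjusted p = 0.0164), though not without ER-MyoD RRR 6 h replicate 3 (0.60, adjusted p = 0.0629).

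For the other members the intervals set what could be seen: over the 21 that were not dim the 95% half-width was 0.23 to 0.92 on the log2 scale, with a median of 0.53. Itga7 differed by -0.44 ± 0.15, -0.41 ± 0.15 and 0.11 ± 0.15 at 6, 12 and 24 h (adjusted p = 0.0929, 0.209 and 0.801), and at 6 and 12 h every ER-MyoD RRR array was below every ER-MyoD wt array. Itgb1 had the lowest value, -1.06 ± 0.39 at 6 h (adjusted p = 0.141), with replicate 2, whose 3′ to 5′ ratios topped the series, at 344. At 24 h the values farthest from 0 were those of 2 laminin alpha chains with opposite signs: Lama2 was -0.85 ± 0.28 (99.0, 116 and 73.1 against 158, 168 and 176, adjusted p = 0.083) and Lama4 0.87 ± 0.29 (809, 657 and 479 against 424, 382 and 268, adjusted p = 0.0862). In both the arrays of the fusions did not overlap, and with a pseudocount of 64 in place of 16 both passed (-0.63 and 0.79, adjusted p = 0.00277 and 0.0259). Itgb5 at 24 h was 0.38 ± 0.12 (adjusted p = 0.0514) and passed without ER-MyoD wt 24 h replicate 2 (0.47, adjusted p = 0.0263) or ER-MyoD RRR 24 h replicate 3 (0.46, adjusted p = 0.0328).

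At 6 h, leaving out ER-MyoD RRR 6 h replicate 2, whose 3′ to 5′ ratios topped the series, raised the count from 1 to 3 members: Itga4 (-0.71, adjusted p = 0.0387) and Itgav (-0.46, adjusted p = 0.0315) joined Itga6, all lower in ER-MyoD RRR. Leaving out replicate 3 of that group instead gave 2, with Itga4 at -0.74 (adjusted p = 0.0475). With all arrays Itga4 was -0.60 ± 0.18 (adjusted p = 0.0619) and Itgav -0.33 ± 0.12 (adjusted p = 0.147). In both the difference between the fusions changed by 24 h, when it was 0.40 for Itga4 and 0.32 for Itgav; the tests of that change gave 1.01 ± 0.26 and 0.65 ± 0.17 (adjusted p = 0.0358 and 0.0466). With Itga6, these were the 3 members whose difference between the fusions changed, against 2.03% of all genes (1.33% higher and 0.704% lower). The 3 calls were all lost with median centring, with the mean over all probe sets and on only the arrays compared, and the count of 3 fell to 1 without any 1 of 9 of the 12 arrays involved (each ER-MyoD wt array of 6 h, ER-MyoD wt 24 h replicate 3, ER-MyoD RRR 6 h replicates 1 and 3, and each ER-MyoD RRR array of 24 h).

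**Figure D3:**
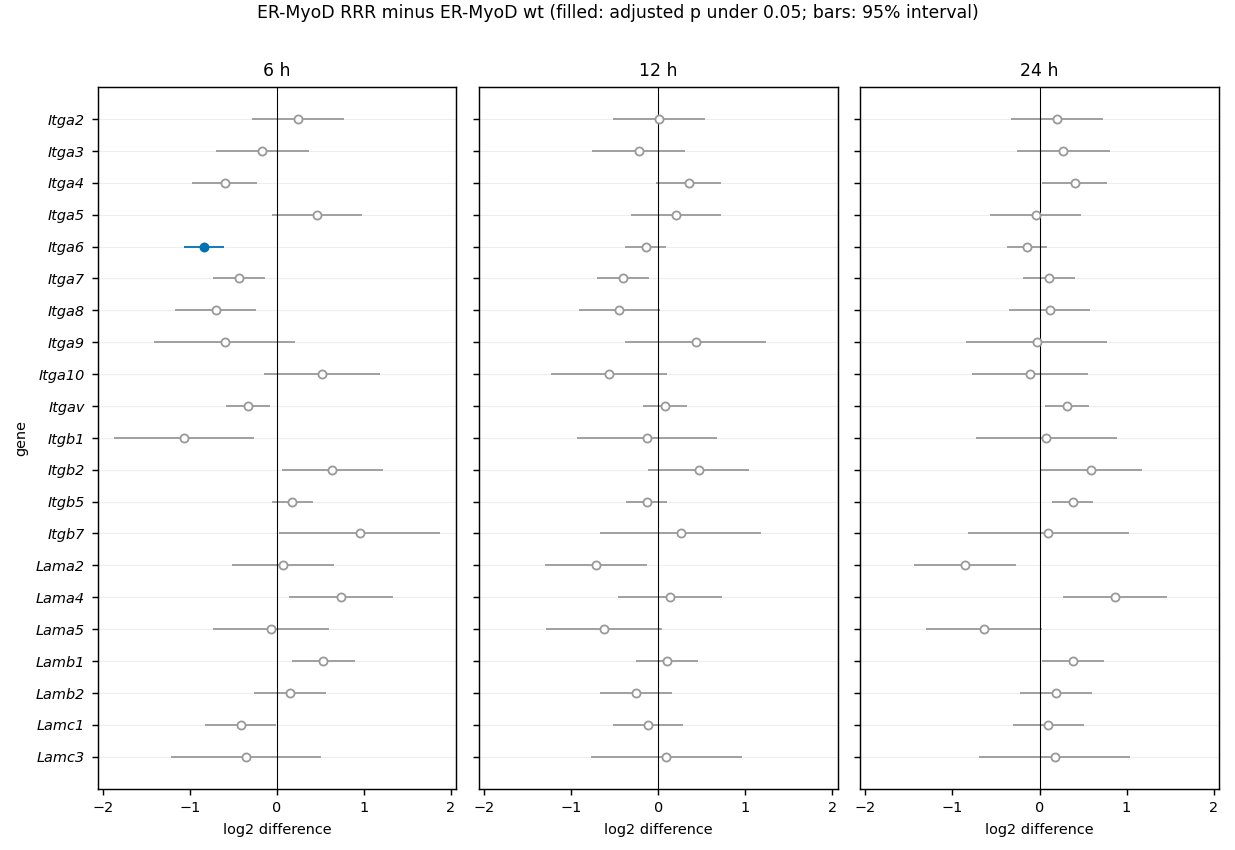
Log2 difference of ER-MyoD RRR minus ER-MyoD wt (x axis) for the 21 members that were not dim (rows) at 6, 12 and 24 h; bars are 95% intervals, and the filled point passed the test. Only Itga6 at 6 h is filled, at -0.84, and the half-widths of the intervals run from 0.23 to 0.92.

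The difference between ER-MyoD wt and control itself changed from 6 to 24 h for 9 members, 4 towards higher and 5 towards lower, against 14.7% of all genes (6.45% higher and 8.24% lower). Many members also changed between 6 and 24 h in cells without any fusion. In empty retrovirus cells 11 of 29 members changed from 6 to 24 h, 9 up and 2 down, against 15.8% of all genes (8.09% higher and 7.67% lower); the members' median was 0.29 and that of all genes -0.02. Those that rose were Lama4, Itga8, Itgb5, Lama5, Itga4, Itgb2, Lamc1, Lamb2 and Itgav, from 4.37 for Lama4 to 0.37 for Itgav, and those that fell were Itga6 (-1.37) and Itga7 (-0.58). The rise of Itgav, Lama5 and Itgb2 (0.89) was lost in 9, 7 and 6 of 16 alternatives: Itgav without replicates 2 or 3 of 6 h or 1 or 2 of 24 h, Lama5 without replicates 1 or 3 of either hour, and Itgb2 without replicates 1 or 3 of 6 h or any of 24 h (adjusted p from 0.0616 to 0.203). Lama5 rested on the 2 low arrays of 6 h (0.68, adjusted p = 0.203 without replicate 3 and 0.77, adjusted p = 0.17 without replicate 1). With the mean over all probe sets of a gene, 7 members passed. Fibroblast markers rose in the same arrays: 7 of 8 were higher in empty retrovirus at 24 h than at 6 h and 0 lower, with a median of 1.68, and their summed signal went from 18354 to 19456 to 38405 to 46561; their part in these changes was not tested.

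In ER-MyoD wt, 14 members differed between 0 and 24 h, 7 up and 7 down, against 30.7% of all genes (14.5% higher and 16.2% lower), with medians of 0.06 for the members and -0.03 for all genes. Those up were Lama2, Itga7, Itga6, Lama5, Lama4, Itga4 and Lamc1, and those down were Itga5, Itgb5, Lamb1, Itga8, Itga2, Lamb2 and Itgav. At 6 h 10 members differed from 0 h, 4 up and 6 down, against 17.7% of all genes (9.51% higher and 8.2% lower). At 12 h 10 did, 5 up and 5 down, against 20.4% of all genes (10.5% higher and 9.86% lower). The 6 and 12 h changes had medians of -0.13 and -0.01 for the members and -0.05 and -0.02 for all genes. Lamc1 was up at each time, at 0.83, 1.06 and 0.59, the last lost without ER-MyoD wt 24 h replicate 1 (0.50) or 0 h replicates 1 or 2 (0.56 and 0.59) and with median centring (0.42). The mean over its 2 probe sets kept none of these 3 calls (0.43, 0.85 and 0.22, adjusted p = 0.507, 0.113 and 0.734). The Itga4 rise from 0 to 24 h was lost with the mean over its probe sets (0.14, adjusted p = 0.644) and on only the arrays compared (0.67, adjusted p = 0.0528), and the Itgav fall with the mean (-0.45, adjusted p = 0.16). Lamb2 was down at each, at -0.97, -0.74 and -0.71, the 12 h call lost without ER-MyoD wt 12 h replicate 2 (-0.60, adjusted p = 0.0621). From 6 to 24 h, 6 members changed in ER-MyoD wt, 3 up and 3 down, or 20.7% against 23.8% of all genes (11.4% higher and 12.4% lower). In ER-MyoD RRR 4 changed, all up, or 13.8% against 23.9% (11% and 12.9%). With median centring 4 went up and 1 down. With the deposited scaling 6 went up and 0 down. With so few members, neither share is read as apart from that of all genes.

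Markers of cell types were read beside these values, and their part in the members' differences was not tested. The summed signal of 7 skeletal muscle markers was 1082 to 1160.0 in ER-MyoD wt at 0 h, 5603 to 6059.8 at 6 h and 37108 to 43703 at 24 h. It was 27319 to 30279 in ER-MyoD RRR at 24 h and 144 to 211 in empty retrovirus. The 8 fibroblast markers, all measured, summed to 17747 to 25407 in ER-MyoD wt at 24 h, 30591 to 36182 in ER-MyoD RRR and 38405 to 46561 in empty retrovirus, with 7 of 8 lower in ER-MyoD wt than in the control; at 6 h the sums were 17679.7 to 20812, 19154 to 22825 and 18354 to 19456. The 6 smooth muscle markers summed to 17831 to 26373 in ER-MyoD wt at 0 h, 15317 to 19907 at 6 h and 8664 to 10581 at 24 h. At 6 and 24 h they summed to 11867.5 to 15106 and 6964 to 7455 in ER-MyoD RRR, and to 1393 to 1725 and 4890.5 to 5685 in empty retrovirus. With ER-MyoD wt against the control 4 of the 6 were higher and 0 lower at 6 h, where all genes gave 6.51% and 6.21%. Sums of 7 endothelial markers stayed between 86.9 and 327 on every array, with Pecam1 group means of 3.96 to 24.3. Among 6 epithelial markers Cdh1 had group means of 9.75 to 44.8 and Epcam of 129 to 419, and of 5 glial markers 3 were measured, with Sox10 at 73.8 to 127. Against the control, 0 genes of these 3 lists passed in limma in ER-MyoD wt at 6, 12 or 24 h, and 3 of 16 had an unadjusted p under 0.05 at some hour. Of all genes 12.7%, 15.4% and 25.4% passed at 6, 12 and 24 h, and 22.8%, 25.5% and 33.8% had an unadjusted p under 0.05 in limma.

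The other genes of the pathway came from lists set for this description. Of 26 basement membrane and ligand genes outside the collagens, 25 were measured. With ER-MyoD wt against the control 6 were higher and 2 lower at 6 h, 6 and 4 at 12 h, and 4 and 12 at 24 h, with medians of 0.17, -0.04 and -0.42 (at 6 h 6 and 0 with median centring). Over all genes 6.51% were higher and 6.21% lower at 6 h, 7.16% and 8.26% at 12 h, and 11.4% and 14% at 24 h. The medians of all genes were -0.01, -0.02 and 0.03. Of the 25 genes, ER-MyoD RRR against the control gave 6 and 2, 8 and 2, and 6 and 6 (with median centring 7 and 0 at 6 h and 8 and 0 at 12 h), where all genes gave 7.18% and 6.63%, 5.11% and 4.97%, and 8.56% and 10.5%. Dag1, which encodes dystroglycan, the other laminin receptor of muscle, was 2082 ± 389.9 (SD, n = 3) in ER-MyoD wt and 1134 ± 127 in empty retrovirus at 24 h (0.77 ± 0.15, adjusted p = 0.000204), and was higher at 6 and 12 h as well (1.17 and 1.44). A further pair of genes was picked after their values were seen: the netrin Ntn4, which binds laminin, was 140.3 ± 28.1 against 7.8 ± 7.43 (2.72 ± 0.31, adjusted p = 4.69e-08), and the basement membrane protein Fras1 was 332 ± 27 against 51.3 ± 4.09 (2.45 ± 0.24, adjusted p = 2.69e-09). Nid1, which links laminin to collagen, was lower at each hour (-0.88, -1.42 and -2.37), and Ntn1, a netrin better known as a guidance cue, was 137 ± 13 against 1051 ± 35 at 24 h (-2.93 ± 0.15, adjusted p = 1.48e-14). The matrix protein Tnc, a ligand of Itga8 and Itga9, was higher at 6 and 12 h (2.63 ± 0.13 and 1.38 ± 0.13, adjusted p = 1.36e-14 and 5.84e-09), as was Sparc (1.02 ± 0.14 and 1.2 ± 0.14). Vcam1, the ligand of Itga4, was 246 ± 22.3 in ER-MyoD wt, 629.9 ± 105 in ER-MyoD RRR and 1369 ± 98.2 in empty retrovirus at 24 h (wild-type fusion against control -2.55 ± 0.12, adjusted p = 1.45e-15).

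Several of these ligands differed between the fusions. In ER-MyoD RRR minus ER-MyoD wt, 3, 4 and 9 of the 25 genes were higher at 6, 12 and 24 h and 0 lower, with medians of 0.06, -0.10 and 0.37. Over all genes 1.63%, 0.874% and 3.34% were higher and 2.03%, 0.879% and 2.04% lower, with medians of 0.05, 0.01 and 0.00. With median centring 0, 2 and 5 of the list were higher. At 24 h the 4 with the smallest p were Vcam1 (1.34 ± 0.12), the thrombospondin Thbs2 (1.10 ± 0.13), Tnc (0.98 ± 0.13) and Mfge8, a ligand of Itgav with Itgb5 (0.78 ± 0.11), with adjusted p of 5.07e-08, 3.57e-06, 2.19e-05 and 2.45e-05. Vcam1 was higher in ER-MyoD RRR at 6 and 12 h too (0.46 and 0.91, adjusted p = 0.0278 and 2.21e-05), as was Ntn1 (0.70 and 0.77). The fibroblast markers moved with them: 6 of 8 were higher in ER-MyoD RRR than in ER-MyoD wt at 24 h and none lower, with a median of 0.90. Their part was not tested.

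Inside the cell, integrins act through the adhesome, the proteins that tie their tails to actin. The adhesome list had 39 genes, of which 36 were measured. It also took in genes outside that definition, Cd151, Cd9, Cd81, Cd47 and Adam12 among them. With ER-MyoD wt against the control 15 were higher and 5 lower at 6 h, 8 and 8 at 12 h, and 7 and 16 at 24 h, with medians of 0.39, 0.01 and -0.37. All genes gave 6.51% and 6.21%, 7.16% and 8.26%, and 11.4% and 14%, with medians of -0.01, -0.02 and 0.03. Median centring gave 16 higher and 2 lower of the 36 at 6 h and 9 and 4 at 12 h. With ER-MyoD RRR against the control it was 8 and 4, 4 and 6, and 6 and 12, where all genes gave 7.18% and 6.63%, 5.11% and 4.97%, and 8.56% and 10.5%. Under median centring it was 15 and 1 at 6 h and 4 and 2 at 12 h. Early, the kindlin Fermt2, which activates integrins, was 1943 ± 360.4 in ER-MyoD wt against 693 ± 18.2 in empty retrovirus (1.35 ± 0.14, adjusted p = 4.43e-08), with vinculin, Vcl (1.11 ± 0.13, adjusted p = 1.64e-07), and parvin, Parva (1.10 ± 0.18, adjusted p = 5.64e-05), also higher. At 24 h the paxillin gene Pxn was higher, 2649.6 ± 701 against 891 ± 87.4 (1.47 ± 0.13, adjusted p = 7.4e-10), as were Arhgef7, a Rac exchange factor (2.07 ± 0.16), and Adam12, a metalloprotease made by fusing myoblasts (1.68 ± 0.15). The LIM protein Lpp was lower (-1.70 ± 0.13, adjusted p = 5.37e-11), and so were talin, Tln1 (-1.14 ± 0.26), and filamin, Flna (-1.29 ± 0.17), named after their values were seen. Cd47, which associates with integrins, was lower at 12 and 24 h (-1.49 and -1.26). Between the fusions 1 gene of the adhesome list was higher and 3 lower in ER-MyoD RRR at 6 h, 4 and 2 at 12 h, and 5 and 4 at 24 h. All genes gave 1.63% and 2.03%, 0.874% and 0.879%, and 3.34% and 2.04%. With median centring the adhesome counts were 0 and 0, 2 and 0, and 1 and 2. The 3 lower at 6 h were Vcl (-0.65 ± 0.13), Lpp (-0.67 ± 0.13) and Fermt2 (-0.66 ± 0.14), beside Cd47, the higher one (0.45 ± 0.12). At 24 h Sorbs3, which encodes vinexin, was higher (1.11 ± 0.16, adjusted p = 6.06e-05) and Arhgef7, Tln2 and Pxn lower (-0.83, -0.91 and -0.55).

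**Figure D4:**
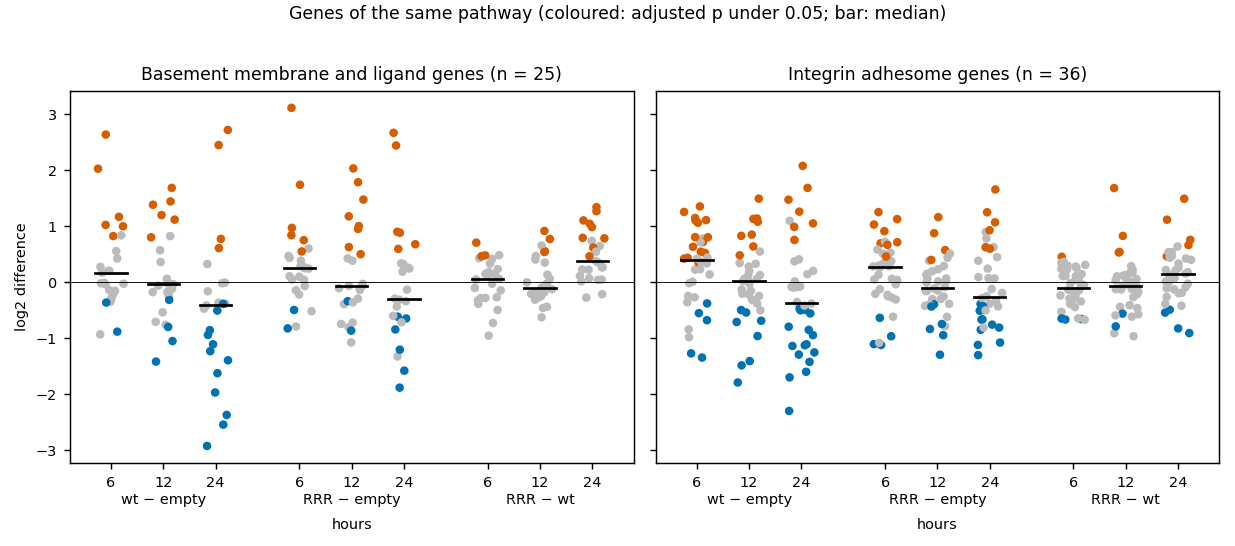
Log2 differences of 25 basement membrane and ligand genes (left) and 36 genes of the adhesome list (right) in ER-MyoD wt minus empty retrovirus, ER-MyoD RRR minus empty retrovirus and ER-MyoD RRR minus ER-MyoD wt at 6, 12 and 24 h. Each point is 1 gene, orange (higher) or blue (lower) where it passed the test, and the bar is the median of the list. In ER-MyoD wt minus empty retrovirus the medians go from 0.17 to -0.42 (left) and from 0.39 to -0.37 (right) between 6 and 24 h.

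Integrin chains outside the rule, those of leukocytes and platelets, made a last list of 7 genes, of which 6 were measured. With ER-MyoD wt against the control 0 passed in limma at 6 or 12 h (at an unadjusted p under 0.05, 0 and 0 of 6), and 1 was higher at 24 h, Itgam (1.08 ± 0.37), with group means of 10.5 to 54.3. Over all genes 12.7%, 15.4% and 25.4% passed at 6, 12 and 24 h, and 22.8% and 25.5% had an unadjusted p under 0.05 in limma at 6 and 12 h. Of the 29 members, 14 passed against empty retrovirus with ER-MyoD wt at some hour and 15 with ER-MyoD RRR, where Itga10 was added, against 32.8% and 28.5% of all genes. With ER-MyoD wt, Itga10 passed only in some alternatives. The 14 that passed at no hour with either were Itga1, Itga2, Itga3, Itga5, Itga9, Itgb1, Itgb3, Itgb4, Itgb6, Itgb7, Itgb8, Lama1, Lama3 and Lamb3, and 8 of these were the dim ones. Some of the 14 passed in alternatives, Itga5 among them.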

How the data were processed

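RNA of 30 samples was read on 1-colour Affymetrix whole-genome mouse arrays. The values are the signal intensities deposited by the authors for 45101 probe sets, on a linear scale from 0.0474 to 20986; the software that made them is not given in the sources used here. With the top and bottom 2% of probe sets set aside, every array averaged 150, so arrays had been scaled by a factor each, while their medians ran from 38.0 to 64.1. Probe sets were named from GEO's platform annotation: 34945 had 1 gene symbol, 932 several and 9160 none there. Leaving out 64 control probe sets, the intensities were quantile normalized, a pseudocount of 16 was added, and log2 values were taken. The 18193 genes were each read by their brightest probe set (9010 had more than 1), and alternatives used the mean of all.

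A mean for each of the 10 groups was fitted over all 30 arrays (20 residual degrees of freedom) with limma 3.58.1 (lmFit, eBayes with trend; R 4.3.3), and p-values, two-sided, were adjusted by Benjamini-Hochberg over 18193 genes in each of 17 comparisons, with a threshold of 0.05. The number of arrays limits the precision, and the scale understates changes of dim genes. The fit was tested on simulated data. Figures were drawn with matplotlib 3.10.9.

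The members, the lists of markers and pathway genes and the rule for naming genes were chosen with earlier results of these data known. That rule gave values in every array for fixed members and for those that passed with ER-MyoD wt against the control at 24 h or between the fusions, a range for every other, and from each list up to 4 genes of smallest p in a comparison; other values are of members past the threshold elsewhere. Alternatives were the deposited scaling, median centring, other pseudocounts, a filter on dim genes, the mean over probe sets, a fit on only the arrays compared, no trend, the replicate number as a block, and left-out arrays. Promoters came from RefSeq (GRCm38.p6).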

Additional observations from a re-analysis of the deposited data

Results flagged for a closer look

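12 values stood out because the difference between a pair of constructs itself changed from 6 to 24 h, tested as an interaction term in limma and adjusted over all genes. Each change is on the log2 scale with its standard error, from 3 arrays in each of 4 groups. For ER-MyoD wt minus empty retrovirus, 9 of 29 members changed, 4 towards higher and 5 towards lower in ER-MyoD wt, where 14.7% of all genes did. With median centring the split was 2 and 5, because the changes of Itga6 and Itga7 then missed the threshold (0.55 and 0.70, adjusted p = 0.0972 and 0.0912).

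Towards higher went Lama2 (2.84 ± 0.40, adjusted p = 6.13e-06), Itgb7 (2.13 ± 0.64, adjusted p = 0.0213), Itga7 (0.87 ± 0.21, adjusted p = 0.00308) and Itga6 (0.87 ± 0.16, adjusted p = 0.000217). Towards lower went Itga8 (-2.91 ± 0.32, adjusted p = 9.36e-08), Lama4 (-2.55 ± 0.41, adjusted p = 4.14e-05), Itgb5 (-1.87 ± 0.16, adjusted p = 1.68e-09), Itgav (-1.17 ± 0.17, adjusted p = 1.2e-05) and Lamc1 (-1.07 ± 0.28, adjusted p = 0.00756). In Itga8, Itgb5 and Lama4 the larger movement was a rise of empty retrovirus (1.98, 1.65 and 4.37 from 6 to 24 h), and in Itgav it was a fall of ER-MyoD wt (-0.80, against 0.37 in the control). In Lama2 it was a rise of ER-MyoD wt by 3.02. The mean Itga6 signal fell in both groups, from 2212 to 1491 in ER-MyoD wt and from 386 to 151 in empty retrovirus. With the mean over all probe sets of a gene the changes of Itgav, Lama4 and Lamc1 missed the threshold (-0.69, -1.43 and -0.70, adjusted p = 0.205, 0.0874 and 0.473).

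For ER-MyoD RRR minus ER-MyoD wt, the difference of 3 members changed, all towards a higher value: Itga4 (1.01 ± 0.26, adjusted p = 0.0358), Itga6 (0.69 ± 0.16, adjusted p = 0.0164) and Itgav (0.65 ± 0.17, adjusted p = 0.0466). Of all genes, 2.03% changed. From 6 to 24 h the mean Itga6 signal went from 1267 to 1271 in ER-MyoD RRR and from 2212 to 1491 in ER-MyoD wt. That of Itgav fell in both, from 2743 to 2103 and from 3239 to 1816. That of Itga4 rose in both, from 56.9 to 196 and from 91.8 to 140. These 3 calls depended on the processing as described with the values of these genes.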

How the results depend on the processing

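Over the 10 main comparisons there were 81 calls, each 1 member in 1 comparison. Recomputed 1296 times in all, a call was kept 1170 times, lost 126 times and reversed 0 times; in the 7 other comparisons, with 53 calls, it was kept 822 times of 919, lost 97 times and reversed 0 times. Of the 81 calls, 66 were kept on only the arrays compared, 68 with the mean over probe sets, 72 with median centring, 73 with the deposited scaling, 74 without the 3 arrays that stood apart, 76 with no trend of the spread, 78 and 80 with pseudocounts of 1 and 64, and 81 with the filter on dim genes. Left-out arrays kept 423 of 486.

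Counts moved as follows. ER-MyoD RRR minus ER-MyoD wt at 6 h (1 member) gave 2 with the deposited scaling, the filter, no trend or the replicate block, and 3 without the 3 arrays that stood apart; at 24 h (0) it gave 3 with a pseudocount of 64 and 1 with the filter or the mean over probe sets. ER-MyoD RRR minus empty retrovirus gave 6 at 6 h (from 10) and 6 at 12 h (from 11) on only the arrays compared. Empty retrovirus from 6 to 24 h (11) gave 7 with the mean over probe sets. The change of ER-MyoD RRR minus ER-MyoD wt (3) gave 0 with median centring, the mean over probe sets or only the arrays compared, and 1 with no trend. The cause was not tested.

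With 1 array left out, the counts of ER-MyoD wt minus empty retrovirus ran from 10 to 12, 10 to 12 and 10 to 13 at 6, 12 and 24 h, those of ER-MyoD RRR minus ER-MyoD wt from 1 to 3, 0 to 0 and 0 to 1, and those of ER-MyoD RRR minus empty retrovirus from 7 to 11, 7 to 10 and 8 to 10. Against 0 h the ranges were 8 to 11, 7 to 10 and 12 to 14 at 6, 12 and 24 h, and from 6 to 24 h they were 5 to 7 for ER-MyoD wt, 4 to 6 for ER-MyoD RRR and 8 to 10 for empty retrovirus. The changes gave 8 to 9 and 1 to 3.

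Replicate numbers did not pair the arrays: the deviations of 39 same-numbered pairs correlated at -0.11 to 0.091, with 0 pairs over 0.1. With the replicate number as a block 79 of the 81 calls were kept and 1 was gained, and ER-MyoD RRR minus ER-MyoD wt at 6 h had 2 members, the added one being Lamb1 (0.53, adjusted p = 0.0386). Signals of the 8 dim members lay near the lower end of the scale, where these arrays could show only large differences.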
